A study of Mus musculus with 8 samples.

Results

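The mouse Hox genes lie in 4 clusters, named A to D, and encode homeodomain transcription factors that give cells along the body axis their positional identity. The 38 Hox genes listed for this account were matched by symbol to GENCODE M21 (the mouse gene annotation on build GRCm38, also called mm10), which holds 21755 protein-coding genes on the autosomes and X. Cluster A on chromosome 6 held 10 of them, cluster B on chromosome 11 held 10, cluster C on chromosome 15 held 9 and cluster D on chromosome 2 held 9. Within a cluster the genes are numbered by paralogue group, and groups 1 to 4 were called anterior (11 genes), groups 5 to 9 central (15 genes) and groups 10 to 13 posterior (12 genes). The promoter was the window of 1000 bases on either side of the annotated gene start, and the gene body was the annotated gene span. All 38 promoters and all 38 gene bodies had at least 5 CpGs and 20 reads in every library, as did 20501 promoters and 21139 gene bodies of all protein-coding genes.

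During development the Hox genes are switched on in the order in which they stand along the chromosome. Where they are silent, their CpG-rich starts are usually bound by Polycomb group proteins and carry little DNA methylation, in contrast to most CpGs of the genome. Several HoxA and HoxB genes are known for roles in blood stem and progenitor cells, among them Hoxa9, Hoxa7 and Hoxb4, and they are turned down as lymphocytes mature.

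5-methylcytosine (5mC) was measured at CpGs by whole genome oxidative bisulfite sequencing, in which 5-hydroxymethylcytosine is oxidized so that it is read as unmethylated. The cells were resting CD43- B cells and naive CD4+ CD62L+ T cells, both sorted from the spleen of C57BL/6J mice of both sexes aged 6 to 8 weeks, with no treatment or mutant allele named for any group and cells of several mice pooled per sample. The 8 samples formed 4 groups of 2 (B and T cells of each sex). The 2 samples of a group name the same file without saying whether it joins them, and its name carries the number of a single sample of the group. There are thus 4 libraries and no standard deviation within a group. Where 2 values are given for a cell type, the female library comes first. A level is the percent of reads that were methylated over the CpGs listed in all 4 libraries, and its 95% Wilson interval covers counting error only. A level between 0% and 100% can come from a mixture of cells, of alleles or of neighboring CpGs, which cannot be told apart here.

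The libraries listed between 19595981 and 20197082 CpGs with a median of 14 to 17 reads per autosomal CpG, and the Hox promoters had between 187 and 3262 reads each. The sorted cells carried the marks of their labels: the promoter of the B cell gene Ms4a1 had levels of 12.7% and 13.8% in B cells against 95.2% and 94.4% in T cells, and that of the T cell gene Cd3e had 84.9% and 86.1% in B cells against 1.23% and 1.38% in T cells. All 4 B cell markers were called lower in B cells and all 5 T cell markers lower in T cells. Of the other cells a spleen sort could hold, both CD8 T cell markers were called lower in T cells, and none of the 4 myeloid, 4 granulocyte, 3 erythroid and 2 natural killer cell markers was called, although 3 myeloid markers passed the adjusted p (Cd68 and Itgam higher and Lyz2 lower in B cells). On mitochondrial DNA, which is taken to be unmethylated, 0.271% and 0.727% of reads were methylated in female and male B cells against 0.0733% and 0.0709% in T cells. The part of this background in the small differences at low levels was not tested.

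Sequences of 4 cluster A starts, of the Hoxb4 start and of a stretch upstream of Hoxa6 are given first, because results on B and T cells, in either direction, fall on these genes, with every CpG in capitals and the gene strand read 5′ to 3′. The first 5 are RefSeq promoters on build GRCm38.p6 (250 bases before to 50 bases after a RefSeq gene start, which 22 of the 38 members have in the table used), and the last is the stretch of 300 bases with the most CpGs in the tile that differed most between B and T cells. They were chosen after the values were seen. For Hoxa5 and Hoxb4 the RefSeq start is the GENCODE start, whereas for Hoxa6, Hoxa7 and Hoxa9 it lies inside the GENCODE gene body.
Hoxa5 (chr6:52204538-52204837, minus strand): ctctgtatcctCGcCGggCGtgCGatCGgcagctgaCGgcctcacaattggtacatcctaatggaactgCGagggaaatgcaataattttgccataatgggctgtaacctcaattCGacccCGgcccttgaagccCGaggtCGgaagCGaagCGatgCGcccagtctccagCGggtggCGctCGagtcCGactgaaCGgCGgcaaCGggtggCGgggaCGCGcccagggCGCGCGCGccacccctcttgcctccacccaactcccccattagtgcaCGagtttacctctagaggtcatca
Hoxa6 (chr6:52208623-52208922, minus strand): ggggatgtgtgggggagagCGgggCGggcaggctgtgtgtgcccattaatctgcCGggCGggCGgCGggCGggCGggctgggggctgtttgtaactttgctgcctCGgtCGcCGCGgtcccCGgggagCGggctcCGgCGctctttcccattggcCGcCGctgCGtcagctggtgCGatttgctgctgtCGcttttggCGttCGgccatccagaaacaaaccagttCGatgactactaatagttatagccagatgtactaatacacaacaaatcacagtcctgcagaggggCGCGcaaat
Hoxa7 (chr6:52218524-52218823, minus strand): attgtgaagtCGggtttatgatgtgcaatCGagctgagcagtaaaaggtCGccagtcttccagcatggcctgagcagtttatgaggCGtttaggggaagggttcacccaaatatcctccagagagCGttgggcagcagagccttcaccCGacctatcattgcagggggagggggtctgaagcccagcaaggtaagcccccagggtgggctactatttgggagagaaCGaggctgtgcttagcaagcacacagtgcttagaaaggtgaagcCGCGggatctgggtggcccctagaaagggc
Hoxa9 (chr6:52227321-52227620, minus strand): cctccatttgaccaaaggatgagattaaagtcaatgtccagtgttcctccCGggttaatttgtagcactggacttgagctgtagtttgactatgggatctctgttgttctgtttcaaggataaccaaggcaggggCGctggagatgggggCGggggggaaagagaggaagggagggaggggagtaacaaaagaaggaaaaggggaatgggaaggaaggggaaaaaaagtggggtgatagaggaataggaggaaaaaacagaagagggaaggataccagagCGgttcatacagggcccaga
Hoxb4 (chr11:96318017-96318316, plus strand): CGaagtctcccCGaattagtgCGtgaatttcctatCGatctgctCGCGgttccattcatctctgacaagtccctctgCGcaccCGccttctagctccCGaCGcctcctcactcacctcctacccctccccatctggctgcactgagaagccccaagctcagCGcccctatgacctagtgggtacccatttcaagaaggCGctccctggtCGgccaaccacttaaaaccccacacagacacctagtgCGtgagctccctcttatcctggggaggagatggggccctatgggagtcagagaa
Upstream of Hoxa6 (chr6:52209505-52209804, minus strand): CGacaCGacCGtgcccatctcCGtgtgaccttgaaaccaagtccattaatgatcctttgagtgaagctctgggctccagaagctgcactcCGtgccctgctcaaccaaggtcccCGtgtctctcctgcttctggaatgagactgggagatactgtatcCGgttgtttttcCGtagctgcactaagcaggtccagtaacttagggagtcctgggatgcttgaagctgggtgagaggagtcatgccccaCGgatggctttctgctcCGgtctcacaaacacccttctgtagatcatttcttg

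The 300 bases of Hoxa5 held 29 CpGs, all measured, and their level was 70.9% (519 reads) and 88.6% (377 reads) in B cells and 96.2% (424 reads) and 91.7% (411 reads) in T cells. The female B cell library stood below the other 3. The Hoxa6 window, with 18 of its 26 CpGs measured, had 1.94% and 4.48% in B cells and 5.36% and 8.14% in T cells, so it was nearly unmethylated in every library, beside the methylated start of its neighbor. The 9 CpGs of the Hoxa7 window had 25.0% and 23.7% in female and male B cells against 63.6% and 47.4% in female and male T cells. All 9 were lower in B than in T cells in both sexes. The other starts of Hoxa7 were unlike this window, and none of the printed windows was tested. Its promoter of 2 kb at the annotated start had 1.21% and 2.89% in B cells and 5.25% and 5.10% in T cells. At the start of its longest coding transcript it had 3.62% and 5.00% in B cells and 5.45% and 4.14% in T cells. In the Hoxa9 window, with 4 CpGs and between 39 and 73 reads per library, the level was 35.6% and 20.5% in B cells against 56.2% and 59.1% in T cells. The Hoxb4 window went the other way, with 24.6% and 21.9% in B cells and 11.6% and 13.7% in T cells. Of its 14 CpGs, 6 were higher and 1 was lower in B cells in both sexes. Over the whole Hoxb4 promoter of 2 kb the level was 19.8% and 12.1% in B cells and 12.5% and 14.2% in T cells, so the libraries overlapped, and the difference of 2.57 points (7.30 in females and -2.15 in males) did not pass (edgeR adjusted p = 0.531).

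The stretch upstream of Hoxa6 began 783 bases from the Hoxa6 start and ended 1082 bases from it. Its 10 CpGs had a level of 32.8% (95% interval 26.3% to 39.99%, 177 reads) in female B cells and 72.2% (64.7% to 78.6%, 158 reads) in female T cells. In males the level was 50.9% (44.4% to 57.3%, 226 reads) in B cells and 73.0% (66.5% to 78.7%, 200 reads) in T cells. Each of the 10 CpGs was lower in B than in T cells in both sexes. The CpG that begins at base 91 of the sequence as printed, for example, was methylated in 10.5% of 19 and 20% of 20 reads in B cells and in 81.8% of 22 and 61.1% of 18 reads in T cells. In each of the 6 windows the levels of the B and T libraries did not overlap. The choice of windows by their values favors this, and no share over all promoters is given. The 95% intervals of all B and all T libraries were apart only in the Hoxa7 window and the upstream stretch. The RefSeq window of Hoxc4 was also read but is not printed. Its libraries overlapped, with 2.47% and 8.28% in B cells and 6.37% and 5.71% in T cells.

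Most Hox promoters were weakly methylated in every library. The median over the 38 promoters was 6.86% and 7.86% in B cells and 7.74% and 7.84% in T cells, and the mean level of the 4 libraries was under 10% at 25 promoters, at or above 80% at 2, and in between at 11. Among all 20501 promoters the median of the mean level was 13.5%, with 43.5% of promoters under 10% and 22.9% at or above 80%. CpG content is part of that comparison: 15 of the 38 Hox promoters were CpG-rich (observed to expected CpG of at least 0.6 and at least 55% G and C), against 21.7% of all promoters. The CpG-rich Hox promoters had a median level of 5.54%, beside 3.06% for the 4366 CpG-rich promoters of the autosomes and 4.10% for the 31 promoters of developmental regulators outside the clusters.

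**Figure D1:**
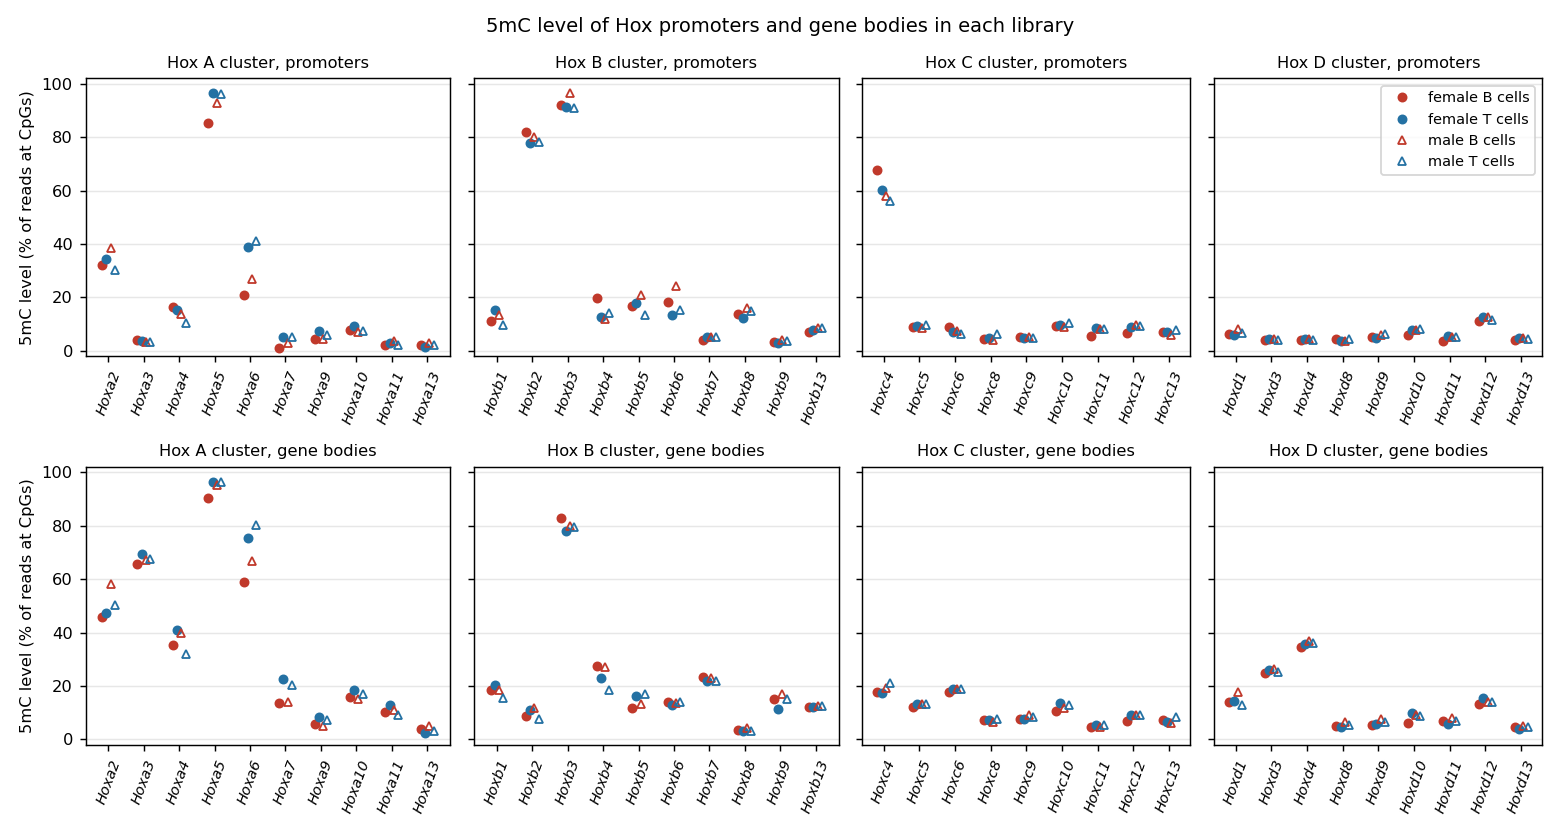
Level of 5mC (percent of reads at CpGs, vertical axis) at the promoter (top) and gene body (bottom) of each Hox gene, in order of paralogue group within clusters A to D. Each gene has 4 points, 1 per library (red, B cells; blue, T cells; filled circles, females; open triangles, males); Hoxa5 stands above 80% at both features in all 4 libraries, and most other genes lie under 20% at the promoter.

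The clusters differed in how many of their promoters were methylated. In cluster D the median of the mean level was 4.81% and 8 of 9 promoters were under 10%, in cluster C it was 7.51% with 8 of 9 under 10%, in cluster A 6.71% with 6 of 10 and in cluster B 14.5% with 3 of 10. By position, the median was 14.0% over the anterior, 5.58% over the central and 7.46% over the posterior promoters, and 4 of 11 anterior, 10 of 15 central and 11 of 12 posterior promoters were under 10%. The anterior genes were not alike across clusters: at the annotated starts their median was 47.1% in cluster B and 4.28% in cluster D. The promoter windows of Hoxd3 and Hoxd4 are shifted by 2 bases and hold the same 82 CpGs, and those of Hoxc5 and Hoxc10 overlap, so these pairs are not separate measurements.

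In cluster A, Hoxa5, a gene of lung and skeletal patterning, had the most methylated promoter. Over 114 CpGs its level was 85.2% and 92.9% in B cells and 96.4% and 96.1% in T cells, although the window was CpG-rich. It was the only one of the 15 CpG-rich Hox promoters at or above 80%, a level that 0.0916% of CpG-rich autosomal promoters reached. Hoxa2, a gene of hindbrain and second-arch patterning, came next with 31.9% and 38.5% in B cells and 34.3% and 30.3% in T cells. The lowest were Hoxa13, a gene of the distal limb, at 2.13% and 2.88% in B cells and 1.53% and 2.00% in T cells, and Hoxa11, a gene of the forearm and uterus, at 2.18% and 3.51% in B cells and 2.81% and 2.05% in T cells. Between these, Hoxa3, Hoxa7, Hoxa9 and Hoxa10 had mean levels of 3.59% to 7.84%, Hoxa4 had 14.0% and Hoxa6 had 32.0%.

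In cluster B the 2 most methylated promoters were anterior. Hoxb3 had 92.2% and 96.6% in B cells and 91.3% and 90.9% in T cells, and Hoxb2 had 81.9% and 80.2% in B cells and 78.0% and 78.2% in T cells. Both windows were poor in CpGs, with 19 and 15 measured. The lowest were Hoxb9, at 3.20% and 4.17% in B cells and 2.74% and 3.75% in T cells, and Hoxb7, at 4.02% and 5.35% in B cells and 5.11% and 5.10% in T cells. The other 6 had mean levels between 8.03% at Hoxb13, which stands apart from the rest of its cluster, and 17.7% at Hoxb6.

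In cluster C a single promoter had a mean level of the 4 libraries above 10%. Hoxc4 had 67.7% and 58.1% in B cells and 60.3% and 56.0% in T cells over 20 CpGs, and the next, Hoxc10, had 9.26% and 9.05% in B cells and 9.79% and 10.4% in T cells. Hoxc9 (5.23% and 5.03% in B cells and 4.71% and 4.81% in T cells) and Hoxc8 (4.59% and 4.21% in B cells and 4.80% and 6.45% in T cells) were the lowest, and in male T cells each level lay outside the interval of the other (3.84% to 6.01% and 5.10% to 8.14%). In cluster D, Hoxd12 was the highest at 11.1% and 12.8% in B cells and 12.7% and 11.4% in T cells, followed by Hoxd10 at 6.04% and 7.74% in B cells and 7.69% and 8.14% in T cells. Hoxd8 (4.40% and 3.81% in B cells and 3.72% and 4.39% in T cells) and the window that Hoxd3 and Hoxd4 share (4.21% and 4.53% in B cells and 4.41% and 3.97% in T cells) were the lowest. The remaining members of clusters C and D had mean levels of 4.497% to 9.003%.

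Paralogues, which descend from 1 ancestral gene, were far apart across clusters in some groups and close in others. In group 5 the mean level was 92.6% at Hoxa5, 17.2% at Hoxb5 and 9.003% at Hoxc5. In group 3 it was 3.59% at Hoxa3, 92.8% at Hoxb3 and 4.28% at Hoxd3. In group 9 it was 5.58% at Hoxa9, 3.47% at Hoxb9, 4.94% at Hoxc9 and 5.54% at Hoxd9, and in group 10 it was 7.84% at Hoxa10, 9.61% at Hoxc10 and 7.40% at Hoxd10. Group 13 was low in all clusters, with 2.13% at Hoxa13, 8.03% at Hoxb13, 6.86% at Hoxc13 and 4.497% at Hoxd13.

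The annotated gene start is that of the longest span, and for 12 members it lay more than 1000 bases from the start of the transcript with the longest coding sequence. At that coding start some members had another level. Hoxc4 had 4.25% and 6.55% in B cells and 5.88% and 7.97% in T cells, and Hoxb2 had 30.0% and 38.6% in B cells and 38.4% and 30.5% in T cells, whereas Hoxb3 had 92.2% and 90.1% in B cells and 90.4% and 91.0% in T cells. For Hoxa5 both starts were the same base. Hoxd4 was higher at its coding start, with a mean of 42.1% against 4.28%. At these starts 22 of 38 members were under 10%.

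Gene bodies of Hox genes were also weakly methylated. Their median was 13.9%, against 77.3% over all 21139 gene bodies, 68.9% over those of autosomal genes with a CpG-rich promoter and 9.11% over the 31 developmental regulators. Of the 38, 14 were under 10% and 2 at or above 80%, where 42.8% of all gene bodies lay. The median was 27.4% in cluster A, 14.7% in B, 8.63% in C and 8.50% in D, and 25.7%, 13.6% and 8.57% over anterior, central and posterior genes. Several annotated spans overlap, so their body levels share CpGs. Hoxa3 spans Hoxa4, Hoxa5 and Hoxa6, and Hoxd3 spans Hoxd4. Hoxc5 spans Hoxc6, Hoxc8 and Hoxc9 and overlaps Hoxc10.

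Hoxa5 was methylated through its body, at 90.6% and 95.5% in B cells and 96.3% and 96.3% in T cells, and Hoxa6 had 59.0% and 66.8% in B cells and 75.3% and 80.4% in T cells. The lowest bodies of cluster A were Hoxa13 (4.06% and 4.89% in B cells and 2.26% and 3.33% in T cells) and Hoxa9 (5.89% and 4.93% in B cells and 8.57% and 7.45% in T cells). In cluster B, Hoxb3 had 83.0% and 79.9% in B cells and 78.0% and 79.6% in T cells, and Hoxb4, a gene used to expand blood stem cells, had 27.4% and 27.1% in B cells and 23.1% and 18.5% in T cells, against 3.52% and 4.19% in B cells and 3.33% and 3.27% in T cells at Hoxb8 and 8.85% and 11.7% in B cells and 11.2% and 7.58% in T cells at Hoxb2. Hoxb2 thus had a methylated annotated start and a body that was not.

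In clusters C and D no body reached 40%. Hoxc4 (17.8% and 19.4% in B cells and 17.5% and 21.2% in T cells) and Hoxc6 (17.9% and 19.1% in B cells and 18.9% and 18.9% in T cells) were the highest of cluster C, and Hoxc11 (4.75% and 4.81% in B cells and 5.49% and 5.39% in T cells) and Hoxc13 (7.19% and 6.35% in B cells and 6.58% and 8.55% in T cells) the lowest. In cluster D the order ran from Hoxd4 (34.8% and 36.8% in B cells and 35.9% and 36.2% in T cells) and Hoxd3 (25.0% and 26.6% in B cells and 25.9% and 25.4% in T cells) down to Hoxd8 (5.20% and 6.52% in B cells and 4.63% and 5.36% in T cells) and Hoxd13 (4.74% and 4.94% in B cells and 3.96% and 4.83% in T cells).

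Each cluster was then read as a whole, from 5000 bases below its first member to 5000 bases above its last. Cluster A (chr6:52157417-52265880, 2944 CpGs) had a level of 32.2% and 32.1% in B cells and 34.7% and 33.5% in T cells. Cluster B (chr11:96189316-96373256, 3467 CpGs) had 37.7% and 39.3% in B cells and 37.8% and 37.5% in T cells, cluster C (chr15:102916103-103041852, 2406 CpGs) 11.7% and 12.7% in B cells and 12.4% and 13.1% in T cells, and cluster D (chr2:74663310-74770142, 2693 CpGs) 16.4% and 18.4% in B cells and 16.6% and 17.1% in T cells. Autosomal CpGs as a whole had 80.3% and 81.0% in B cells and 78.6% and 78.8% in T cells. The share of CpGs under 10% was 50.3% in cluster A, 41.9% in B, 61.9% in C and 61.6% in D, against 8.43% on the autosomes, and the share at or above 80% was 27.7% in A, 25.6% in B, 1.58% in C and 6.02% in D, against 75.3%.

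The methylated CpGs were not spread evenly. In tiles of 1000 bases, 139 of 479 tiles in the clusters had a mean level under 10% (29.0%, against 1.62% of all 1530528 tested tiles), and 105 were at or above 80% (21.9%, against 82.5%). Tiles in the clusters had a median of 19 CpGs against 9 over all tiles. In cluster A 37 of 100 tiles were at or above 80%, with runs of 9 kb within the Hoxa3 span and across its downstream end and a run of 7 kb over Hoxa5. In cluster B 54 of 172 tiles were at or above 80%, including a run of 9 kb between Hoxb13 and Hoxb9 and a run of 8 kb at the annotated start of Hoxb3. Cluster C had no tile at that level, and cluster D had 14 of 101, none of them over the posterior genes.

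Coding exons were less methylated than introns in every cluster. The level was 27.9% in coding exons and 50.6% in introns of cluster A, 15.2% and 50.7% in cluster B, 7.21% and 15.4% in cluster C, and 8.53% and 22.7% in cluster D. Between genes it was 10.9% in cluster A and 43.2% in cluster B.

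**Figure D2:**
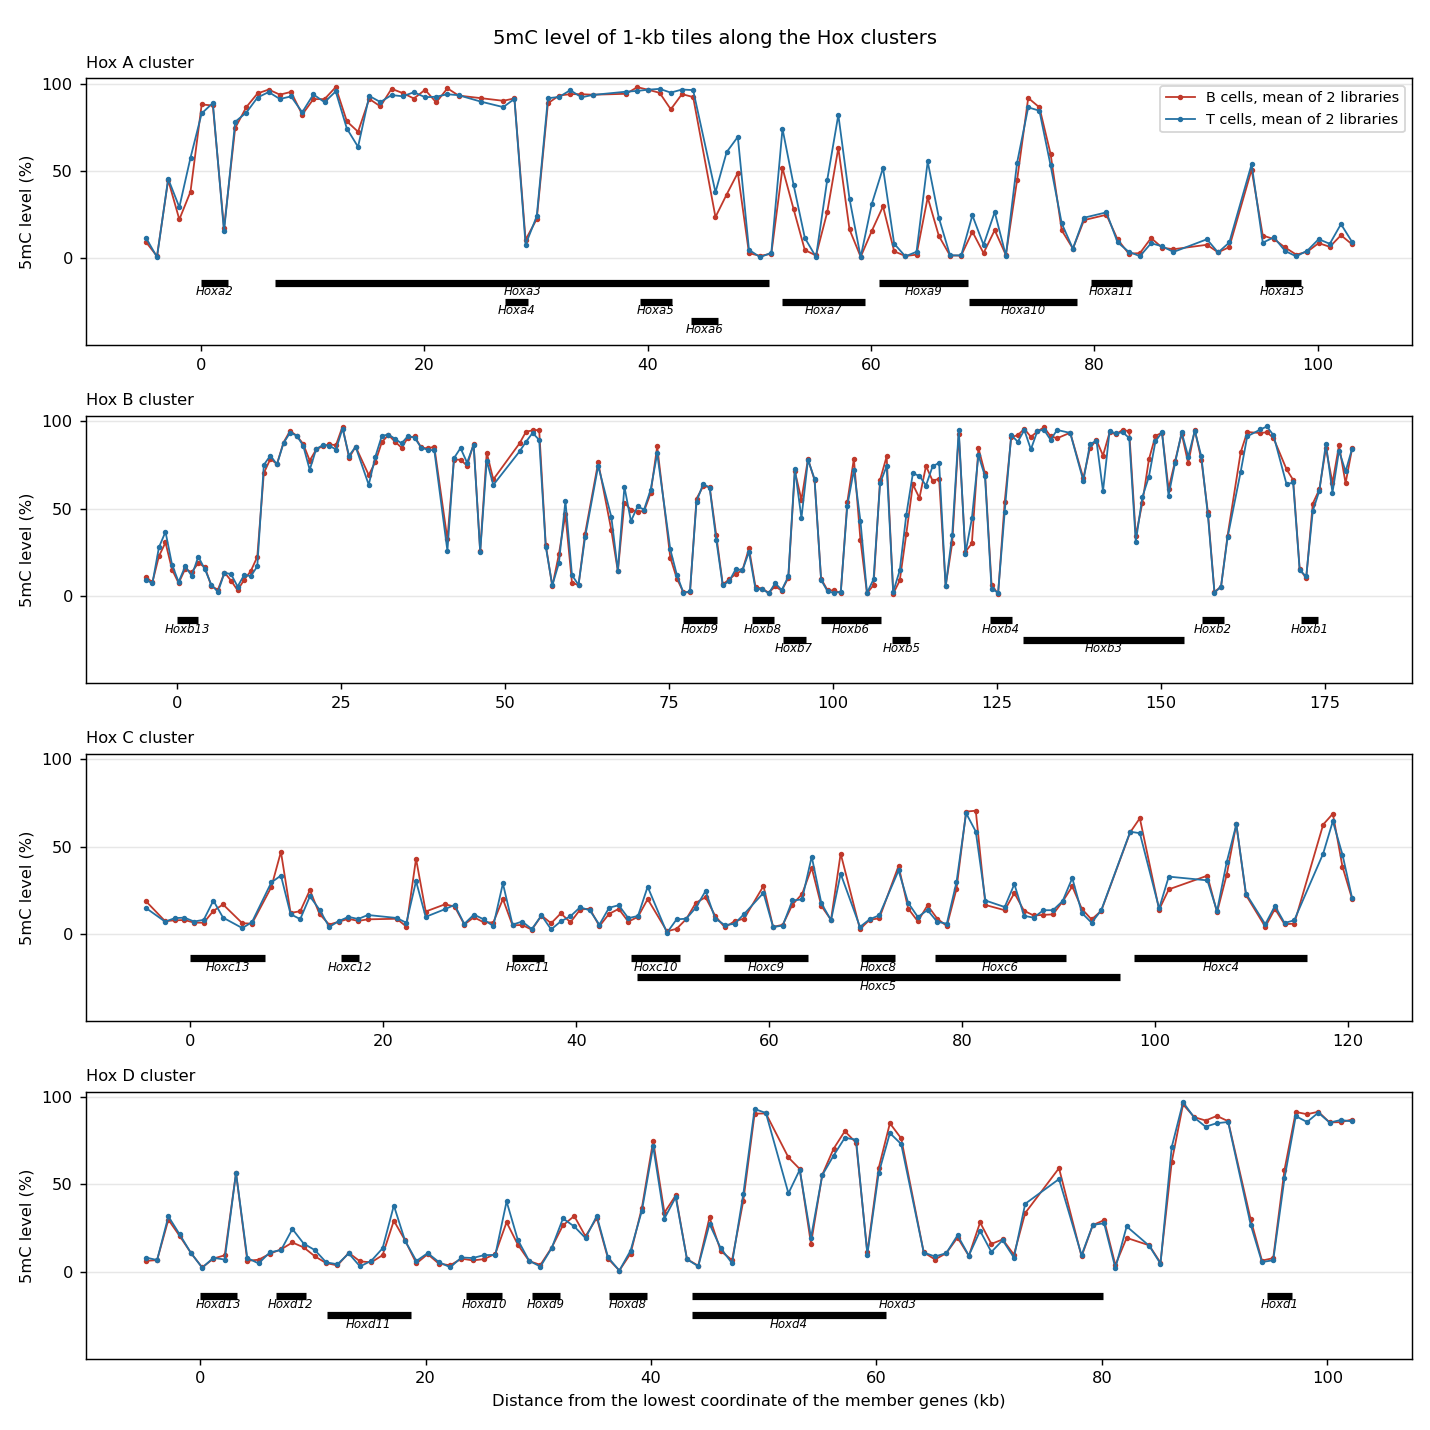
Level of 5mC (percent, vertical axis) in tiles of 1000 bases along each Hox cluster, by distance from the lowest coordinate of the member genes (kb), as the mean of the 2 B cell libraries (red) and of the 2 T cell libraries (blue); lines join tested tiles across gaps, and black bars are annotated gene spans. In cluster A the T cell line lies above the B cell line at the methylated tiles between Hoxa5 and Hoxa9, and no tile of cluster C reaches a mean level of 80% over the 4 libraries.

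B and T cells were compared with the quasi-likelihood test of edgeR on methylated and unmethylated reads, with terms for cell type and sex, and p-values were adjusted over all features of a kind. A feature was called at an adjusted p under 0.05 with B and T cells at least 20 percentage points apart, the B minus T difference being the mean of both B libraries minus that of both T libraries. No Hox promoter was called, against 280 of 20501 promoters (1.37%), nor was any Hox gene body, against 225 of 21139 (1.06%). A feature with a mean level under 10% cannot reach a difference of 20 points, so it could not be called. This held for 25 of the 38 Hox promoters, against 43.5% of all promoters. It also held for 14 of the 38 Hox gene bodies, against 2.47% of all gene bodies. With the adjusted p alone, 4 Hox promoters passed (10.5%, against 19.9% of all promoters). Of these, 3 were lower in B cells (7.89% of Hox promoters, against 2.2% of all promoters) and 1 was higher (2.63%, against 17.7%). At gene bodies 7 passed (18.4%, against 31.1% of all), of which 5 were lower in B cells (13.2%, against 2.12%) and 2 higher (5.26%, against 29%). The Hox genes thus passed less often than features at large, while those that passed were mostly lower in B cells, where features at large were mostly higher. Passing was rarer still among the 31 developmental regulators outside the clusters, with 0 promoters and 1 gene body, which was higher in B cells. No test compared these shares, and the clustered genes are not independent.

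The 3 promoters lower in B cells were neighbors in cluster A. Hoxa6 had 20.8% (95% interval 18.6% to 23.2%) and 26.9% (23.8% to 30.2%) in B cells and 39.0% (36.1% to 41.9%) and 41.3% (38.3% to 44.3%) in T cells. Both B libraries lay below both T libraries, with a B minus T difference of -16.3 points (-18.2 in females and -14.4 in males, edgeR adjusted p = 6.33e-05). Hoxa5, with the levels given above, differed by -7.20 points (-11.2 in females and -3.22 in males, edgeR adjusted p = 1.59e-06). The difference was -3.38 points without the female B cell library and -11.01 points without the male B cell library, so its size rests on the female B cells.

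Hoxa7 had 1.21% and 2.89% in B cells and 5.25% and 5.10% in T cells, a difference of -3.12 points (edgeR adjusted p = 0.000265). In a window of 500 bases on either side it was -0.82 points and no longer passed. Hoxb6, the 1 promoter that was higher in B cells, had 18.4% and 24.2% in B cells and 13.2% and 15.1% in T cells, a difference of 7.13 points (edgeR adjusted p = 0.0213). It was 4.22 points without the male B cell library, 0.72 points in the narrower window, 2.49 points over CpGs with at least 10 reads and -1.28 points at its coding start, none of which passed.

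Among the promoters that did not pass, the largest differences were 4.75 points at Hoxc4 (edgeR adjusted p = 0.437) and 3.31 points at Hoxb3 (edgeR adjusted p = 0.123). All other promoters that did not pass differed by at most 3.05 points in either direction. Over the 38 promoters the median difference was 0.017 points, against 0.97 points over all promoters, and 18 were lower (47.4%, against 27.0% of all promoters) and 20 higher in B cells. The 31 promoters of developmental regulators were similar, with a median of -0.066 points and 51.6% lower in B cells. All 4 central promoters of cluster A were lower in B cells in both sexes (3052 of all 20501 promoters were), with a median of -5.16 points. Hoxa9 among them did not pass (-2.12 points, edgeR adjusted p = 0.176). The medians over the central promoters of clusters B, C and D were 1.12, -0.18 and 0.035 points. Elsewhere 10 of the 12 posterior promoters were lower in B cells, 4 of them in both sexes, against 5533 and 3052 of all 20501 promoters. Of the 11 anterior promoters 10 were higher in B cells, 5 of them in both sexes, against 14961 and 10980 of all 20501. The anterior count includes the shared window of Hoxd3 and Hoxd4 for each gene, and no anterior or posterior promoter passed. At its coding start, Hoxa9, a homeobox gene that drives leukemia when overexpressed, had 18.8% and 18.4% in female and male B cells against 29.2% and 32.1% in T cells, a difference of -12.1 points (edgeR adjusted p = 0.000856). Hoxa7 at its coding start differed by -0.49 points (-1.83 in females and 0.86 in males) and did not pass.

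**Figure D3:**
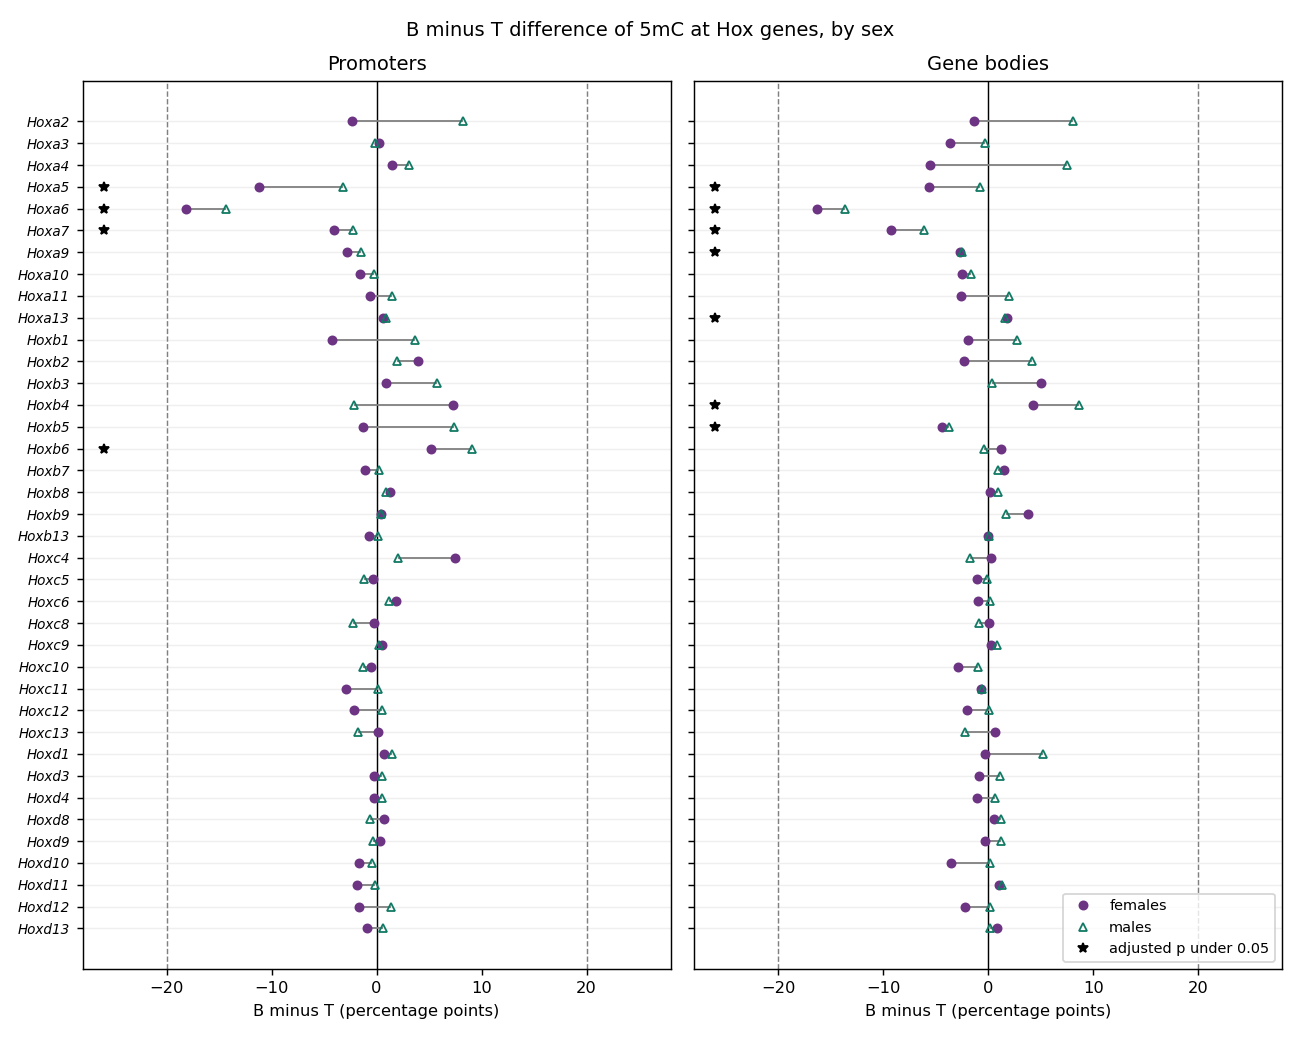
Difference in 5mC level between B and T cells (percentage points, horizontal axis) at the promoter (left) and gene body (right) of each Hox gene, in females (filled circles) and males (open triangles), with dashed lines at 20 points. Stars mark an edgeR adjusted p under 0.05, and no point reaches the dashed lines; Hoxa6 comes closest, with -18.2 points at the promoter in females.

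At gene bodies Hoxa5, Hoxa6, Hoxa7 and Hoxa9 passed, all lower in B cells, and the first 1 kb of each body is also part of its promoter window. Hoxa6, with the levels given above, had a difference of -15.0 points (-16.3 in females and -13.7 in males, edgeR adjusted p = 5.99e-05), which was -5.35 points without the first 1 kb. Hoxa7 had 13.5% (12.6% to 14.4%) and 14.2% (13.1% to 15.3%) in B cells and 22.8% (21.6% to 23.9%) and 20.3% (19.2% to 21.4%) in T cells, a difference of -7.70 points (edgeR adjusted p = 5.33e-05). Hoxa5 differed by -3.26 points (edgeR adjusted p = 0.00566), but it no longer passed without the female B cell library (-0.83 points), without either T cell library (-3.26 points each) or without the first 1 kb (-0.96 points). Hoxa9 differed by -2.60 points (edgeR adjusted p = 0.00102), with both B libraries below both T libraries.

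The other 3 gene bodies that passed lay elsewhere. Hoxb5 had 11.9% and 13.4% in B cells and 16.3% and 17.2% in T cells, a difference of -4.08 points (edgeR adjusted p = 0.0289), which was -9.27 points without the first 1 kb. Hoxb4 was 6.46 points higher in B cells (edgeR adjusted p = 0.0164), or 3.79 points over CpGs with at least 10 reads, and 4.14 to 8.78 points when each library was left out in turn, and it no longer passed without its first 1 kb (6.47 points), and Hoxa13 was 1.68 points higher (edgeR adjusted p = 0.02). Hoxa13 no longer passed over CpGs with at least 10 reads (1.49 points) or without its first 1 kb (2.43 points). The part of the higher mitochondrial levels of the B cell libraries in the Hoxa13 difference was not tested. The next largest difference, 3.34 points at Hoxa2 (46.1% and 58.3% in B cells and 47.5% and 50.3% in T cells), did not pass, and the sexes differed in its direction. The median over the 38 bodies was -0.10 points, against 1.69 points over all gene bodies and 0.198 points over those of the 31 developmental regulators.

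Without any 1 of the 4 libraries no Hox promoter passed the adjusted p in edgeR, against 0.195% to 3.59% of all promoters, and between 1 and 3 gene bodies did, against 7.51% to 27.3% of all gene bodies. The bodies of Hoxa6 and Hoxa7 each passed in 3 of these 4 fits, those of Hoxa5 and Hoxa9 in 1, and those of Hoxa13, Hoxb4 and Hoxb5 in none. limma, fitted to log2 ratios of methylated to unmethylated reads, passed 0 Hox promoters, against 7.23% of all promoters, and of the gene bodies that of Hoxa6 alone, against 6.15% of all, while 4 promoters and 6 gene bodies had an unadjusted p under 0.05, against 25.3% of all promoters and 31.4% of all gene bodies. In edgeR 5 promoters and 9 gene bodies had one, against 30.7% and 40.3%.

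Tiles of 1000 bases resolved the difference within cluster A. Over the 4 clusters 7 of 479 tiles were called (1.46%, against 3.17% of all tiles), 5 of them lower in B cells (1.04%, against 0.812%) and 2 higher (0.418%, against 2.36%). With the adjusted p alone 26 passed (5.43%, against 9.35%), 21 of them lower in B cells (4.38%, against 2.19%). By cluster, 20 of 100 tiles passed in A, 4 of 172 in B, 0 of 106 in C and 2 of 101 in D, and all 5 called tiles that were lower in B cells lay in cluster A. Under limma no tile of the clusters was called, but the share of all tiles called under limma is not given here, so this count has no background.

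From the start of Hoxa5 to the start of Hoxa9 (chr6:52204587-52231089, 26.5 kb, chosen after the values were seen), 16 of 27 tiles passed, all lower in B cells. Of the other 73 tiles of cluster A 4 passed, 3 of them lower in B cells. The largest of these, chr6:52161001-52162000 beyond the downstream end of Hoxa2, differed by -19.5 points (edgeR adjusted p = 8.55e-05). The others lower in B cells lay in Hoxa10. Over the 900 CpGs of the stretch from Hoxa5 to Hoxa9 the level was 20.4% and 20.2% in B cells and 26.5% and 26.5% in T cells. Of these CpGs, 273 were lower in B than in T cells in both sexes and 27 were higher in both. Neighboring CpGs are not independent, and no share over all CpGs is given. The stretch alternated between unmethylated and methylated tiles. Of the 11 tiles with a mean level under 10%, 2 passed, with a median difference of -0.12 points over the 11. Of the 16 at 10% or more, 14 passed, with a median of -16.5 points, and all 16 were lower in B cells in both sexes. The split used the mean level of the same libraries, and a low level leaves little room for a difference in points.

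The like stretches of the other clusters are given beside it with no test. From the start of Hoxb9 to that of Hoxb5 the level was 18.4% and 19.0% in B cells and 17.1% and 17.6% in T cells. From Hoxc9 to Hoxc6 it was 9.002% and 10.1% in B cells and 9.45% and 9.72% in T cells, and from Hoxd9 to Hoxd8 12.2% and 15.1% in B cells and 12.7% and 14.0% in T cells. In none of these did both B libraries lie below both T libraries. In the stretch of cluster B both B libraries lay above both T libraries, by 1.23 points in females and 1.40 in males. In those of clusters C and D the B and T libraries overlapped.

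**Figure D4:**
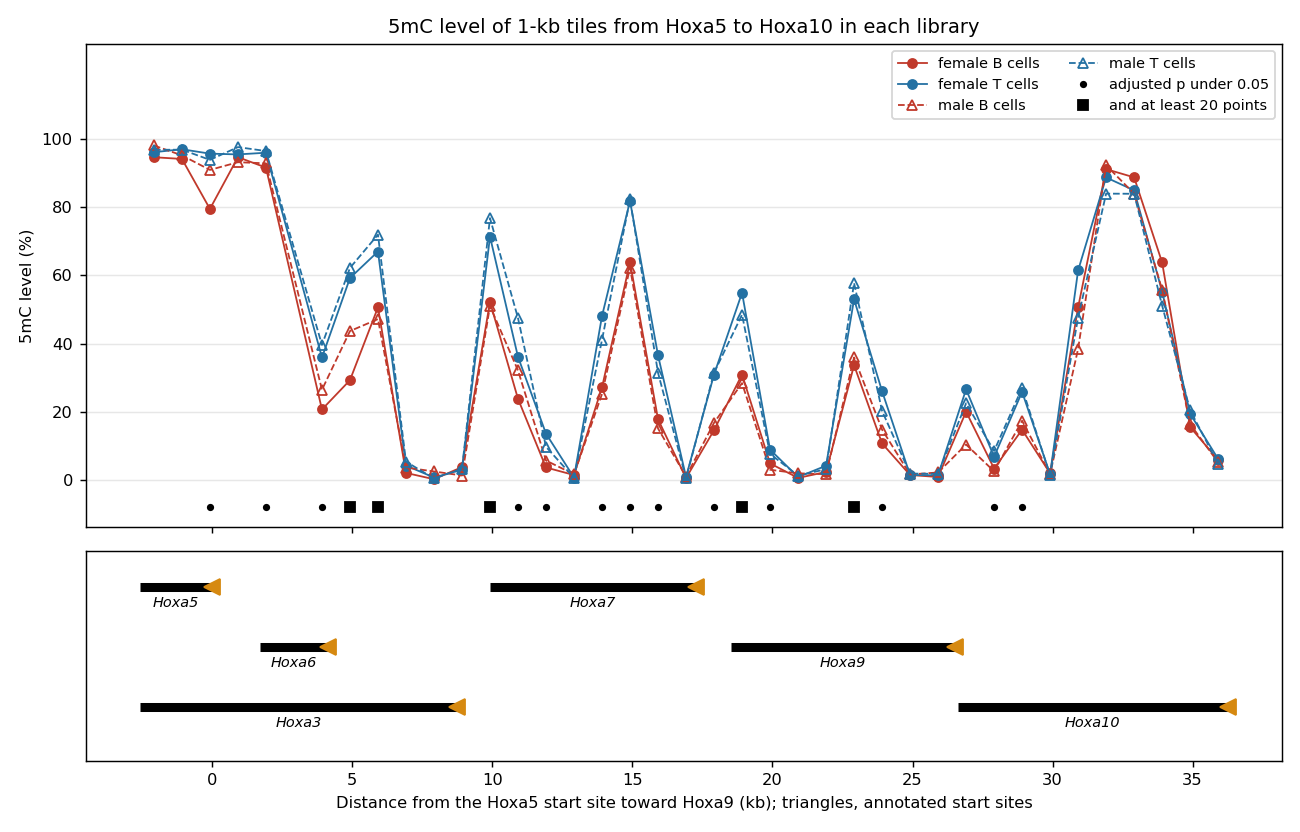
Level of 5mC (percent, upper vertical axis) in tiles of 1000 bases from Hoxa5 to Hoxa10, by distance from the Hoxa5 start site (kb), in each library (red, B cells; blue, T cells; circles and solid lines, females; triangles and dashed lines, males), with gene spans below. Dots at the bottom mark tiles with an edgeR adjusted p under 0.05 and squares the 5 called tiles; between the Hoxa5 and Hoxa9 starts 14 of the 16 tiles at 10% or more passed, and 2 of the 11 under 10%.

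The called tile with the largest difference, chr6:52209001-52210000, was centered 778 bases upstream of the Hoxa6 start and lay in an intron of the Hoxa3 span. It had 29.2% (24.8% to 34.2%) and 43.7% (39.0% to 48.5%) in B cells and 59.2% (54.0% to 64.3%) and 62.2% (57.5% to 66.8%) in T cells, a difference of -24.3 points (edgeR adjusted p = 3.66e-08). It holds the upstream sequence shown above. Beside it, chr6:52210001-52211000 had 50.6% and 47.2% in B cells and 67.0% and 72.0% in T cells (-20.6 points, edgeR adjusted p = 0.000164). That tile is the fifth of its cluster by size and is named after its values were seen.

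The tile chr6:52214001-52215000 covered the downstream end of Hoxa7, with 510 bases in exons and none in coding exons. It had 52.2% and 51.0% in B cells and 71.4% and 76.9% in T cells (-22.5 points, edgeR adjusted p = 0.00117). The tile chr6:52223001-52224000, at the downstream end of Hoxa9 with 901 bases in exons, had 30.9% and 28.4% in B cells and 54.9% and 48.5% in T cells (-22.1 points, edgeR adjusted p = 4.62e-05). The tile chr6:52227001-52228000, which holds the coding start of Hoxa9 given above, had 33.7% and 35.9% in B cells and 53.0% and 57.8% in T cells (-20.6 points, edgeR adjusted p = 7.57e-06). In all 5 tiles both B libraries lay below both T libraries, which their selection as called tiles favors. Without the male T cell library, 2 of them no longer passed, the tile from 52210001 (edgeR adjusted p = 0.0604) and the tile from 52214001 (edgeR adjusted p = 0.101).

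The 2 called tiles that were higher in B cells were poor in CpGs. The tile chr11:96335001-96336000, in the Hoxb3 span, had 7 CpGs and 78.1% and 82.9% in B cells and 59.1% and 61.1% in T cells (20.4 points, edgeR adjusted p = 0.00378). The tile chr2:74720001-74721000, in the Hoxd3 and Hoxd4 spans, had 6 CpGs and 66.2% and 64.6% in B cells and 44.0% and 45.7% in T cells (20.5 points, edgeR adjusted p = 0.00627). Without the female T cell library neither kept an adjusted p under 0.05 (edgeR adjusted p = 0.0575 and 0.111), and each kept it in 1 of the 4 fits that left out a library.

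Between females and males no Hox promoter was called, against 408 of 20501 promoters (1.99%), all 408 of them higher in females. The shares over all features in this comparison include the X chromosome, whereas the Hox clusters lie on autosomes. No share over the autosomes alone is given. No Hox promoter passed the adjusted p alone, against 3.31%. At an unadjusted p under 0.05 there was 1 in edgeR and 0 in limma, against 10.3% and 8.24% of all promoters. Of the Hox gene bodies 0 were called (0.293% of all gene bodies) and 0 passed the adjusted p alone (1% of all), while 6 (15.8%) had an unadjusted p under 0.05 in edgeR and 4 (10.5%) in limma, against 10.7% and 7.86% of all gene bodies. A sex difference in the B minus T value could be tested only weakly with 4 libraries, since the spread in that test came from 1 residual degree of freedom, the contrast of females and males, and a result that did not pass says little. No promoter of any gene passed that test (0%), and 0 Hox gene bodies did, against 1 of 21139 gene bodies (0.00473%). Of the Hox promoters 0 had an unadjusted p under 0.05 in either tool, against 2.24% of all promoters in edgeR and 2.43% in limma, and of the Hox gene bodies 2 (5.26%) had one in each tool, against 2.21% and 3.05% of all gene bodies.

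The genes that work with the Hox proteins were read from lists. The 9 cofactors of the Pbx, Meis and Pknox families, which bind DNA together with Hox proteins, had promoters with a mean level of the 4 libraries under 10%, and none was called. The adjusted p was under 0.05 at 5 of them, all higher in B cells, as at 17.7% of all promoters. Pbx2 stood out among them, with 17.0% and 14.3% in B cells and 0.114% and 0.308% in T cells (15.4 points, edgeR adjusted p = 5.76e-46). It is named after its values were seen. Of the 16 regulators, among them Kmt2a, which keeps Hox genes active, and the Polycomb genes Ezh2, Eed and Suz12, none was called and 2 passed the adjusted p as higher in B cells (17.7% of all promoters did), Ezh2 by 0.453 and Eed by 0.441 points, beside the higher mitochondrial levels of the B cell libraries, whose part was not tested. Of the 16 nearest protein-coding neighbors of the clusters, 5 passed the adjusted p, all higher in B cells (17.7% of all promoters), and 1 was called (1.37% of all promoters). Skap1, an adaptor of T cell receptor signaling that begins 96.3 kb beyond Hoxb1, had 38.8% and 35.3% in female and male B cells against 1.65% and 1.53% in T cells (35.5 points, edgeR adjusted p = 5.17e-65). The Hoxb1 promoter, the nearest of the cluster, had 11.05% and 13.4% in B cells against 15.3% and 9.81% in T cells.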

How the data were processed

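The authors deposited 1 file per group, listing every CpG with at least 5 reads, its methylation level as a fraction from 0 to 1 and its read count, 1 row per CpG. The submitters' processing notes name Trim Galore, FastQC, Bismark 0.13.1 and build mm10, and removal of duplicate reads is not given in the sources used here. The deposited fractions were rounded up to 3 decimals, so methylated reads came from multiplying by the read count and dropping the decimals (100% of levels matched in each library). All positions checked on the 4 Hox chromosomes fell on a CG of GRCm38. CpGs under 5 reads are not analysed here.

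The 18684786 CpGs that every library lists were summed per feature and fitted with edgeR 4.0.16 in R 4.3.3 (glmQLFit, glmQLFTest), with library terms, a methylation term and its interactions with cell type and sex. With 4 libraries, 1 per group, the spread was borrowed from all features: shrinkage was complete for promoters and tiles (infinite prior degrees of freedom), with common dispersions of 0.0109 (promoters), 0.00301 (gene bodies) and 0.00626 (tiles). The p-values measure a spread between these libraries pooled over features, which may be technical, and not the spread of replicates within a group. At promoters and tiles a feature's own spread does not enter. Features needed at least 5 CpGs and 20 reads in every library. Alternatives were limma 3.58.1 on log2 ratios with 1 read added, other windows and starts, CpGs with at least 10 reads and leaving out each library. Scripts were tested on simulated data.

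The members and lists were chosen with earlier results of these data known. Named were members that were called, the 5 largest differences, the 2 highest and 2 lowest of each cluster, and up to 4 called tiles per cluster.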

Additional observations from a re-analysis of the deposited data

How the results depend on the processing

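No Hox promoter or gene body was called under any alternative that kept the minimum of 20 points. Without that minimum 4 promoters, 7 gene bodies and 26 tiles passed. The shares of all tiles in the fits that follow are not given here, so their tile counts have no background. Called tiles, 7 in the reported fit, numbered 0 under limma and 4 with tiles shifted by 500 bases, and 4 to 6 when each library was left out in turn. Leaving out a library and the minimum together, chosen after seeing the data, left 1 to 3 gene bodies and 12 to 22 tiles. The median promoter level (7.46%) was 5.92% in windows of 500 bases and 8.34% at coding starts, and the median gene body level (13.9%) was 12.9% with 10 or more reads and 18.1% without the first 1 kb. With 10 or more reads cluster A (33.1%) was at 31.7% and cluster B (38.1%) at 36.9%, and cluster A was at 35.0% as an unweighted mean and 34.9% without the 5 kb on either side. The Hoxb6 promoter reversed to -1.28 points at its coding start. None of the other 3 promoters and the 7 gene bodies that had passed, or of the 7 called tiles, reversed under an alternative; the other tiles that passed were not followed one by one. Promoters that had not passed also changed sign at their coding starts, among them Hoxc4 (4.75 to -1.53 points) and Hoxd11 (-1.01 to 2.41 points). The cause of these changes was not tested.

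Leave-one-out fits have 1 residual degree of freedom and no sex term. No paired analysis was possible because the groups share no replicate numbers.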

Other observations

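The Hox clusters also hold non-coding genes, and 46 of them start within the cluster spans. At the window of 1000 bases on either side of their starts the median of the mean level was 10.9%, with 21 under 10% and 3 at or above 80%. Hottip, a long non-coding RNA beside Hoxa13, had 6.77% and 7.98% in B cells and 9.92% and 8.96% in T cells, and Hotair in cluster C had 17.7% and 15.1% in B cells and 16.7% and 11.7% in T cells. Hoxb5os had 60.1% and 62.7% in female and male B cells against 70.8% and 69.6% in T cells. Some of these windows overlap those of the Hox genes. They were not tested across B and T cells, and the genes named were chosen after their values were seen.

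The clusters carry the microRNA families miR-10 and miR-196, which are known to target Hox transcripts. Their mature sequences (RefSeq, build GRCm38.p6) share a seed within each family, given in capitals (bases 2 to 8), and are shown because loci with the same seed differed in methylation.
miR-10a-5p (Mir10a, cluster B): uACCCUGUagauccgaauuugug
miR-10b-5p (Mir10b, cluster D): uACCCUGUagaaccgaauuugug
miR-196a-5p (Mir196a-1, cluster B, and Mir196a-2, cluster C): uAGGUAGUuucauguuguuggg
miR-196b-5p (Mir196b, cluster A): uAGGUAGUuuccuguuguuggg
The window at Mir10b had 74.5% and 78.8% in B cells and 72.4% and 78.8% in T cells, and that at Mir10a had 57.5% and 61.4% in B cells and 48.0% and 53.3% in T cells. In the miR-196 family Mir196b had 1.83% and 1.962% in B cells and 1.94% and 1.82% in T cells, Mir196a-2 had 10.5% and 11.2% in B cells and 12.05% and 11.1% in T cells, and Mir196a-1 had 51.0% and 59.1% in B cells and 52.6% and 60% in T cells. Mir196a-1 and Mir196a-2 give the same mature sequence from loci whose levels did not overlap in any library.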
